A study of Mus musculus with 5 samples.

Results

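The tumor necrosis factor (TNF) receptor superfamily of regulatory T (Treg) cells was examined by where RNA polymerase II (Pol II) sat on its genes. A list of 10 mouse genes was followed: the receptor genes Tnfrsf4 (OX40), Tnfrsf18 (GITR), Tnfrsf9 (4-1BB), Tnfrsf1a (TNFR1), Tnfrsf1b (TNFR2), Tnfrsf25 (DR3), Tnfrsf14 (HVEM) and Cd27, the ligand gene Cd40lg, and Traf1, an adaptor that binds the tails of several of these receptors. The genes were chosen by name, with earlier results of these data known. A merged Pol II peak was counted for a gene when the peak's midpoint lay in the gene body or within 3 kb upstream of it on mm10. By this rule 9 of the 10 genes had a peak, with 42 of the 56615 merged peaks, against 12927 genes with a peak in all.

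Pol II was mapped by CUT&Tag, in which an antibody bound to chromatin guides a transposase to cut and tag nearby DNA. Ctrl mice were Foxp3Cre Setd2 flox/+ and KO mice were Foxp3Cre Setd2 flox/flox, both C57BL/6, 8 weeks old, of pooled sex, and both given IL-2c (1 μg IL-2 with 5 μg anti-IL-2 antibody, a complex that expands Treg cells) over 3 days, with cells taken 48 hours later. Setd2 is a histone methyltransferase that places H3K36me3 along transcribed genes. Cre was driven by Foxp3, so that deletion was directed to Treg cells, and Ctrl cells too carried Cre and a floxed allele. Splenic CD3+CD4+YFP+ cells of 2 mice were pooled for sorting and 80000 nuclei made a library, with 2 libraries per genotype. The methods call each such lot of nuclei a biological replicate, but whether both libraries of a genotype came from the same pool of mice was not clear, so the p-values measure the spread between these libraries, which may be technical. The IgG library of the series was not analysed here.

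Peaks held between 4489646 and 13351007 counts per library, and the libraries numbered 2 were the shallower in both groups. Pol II counts over Setd2, the targeted gene, did not separate the groups (log2 fold change −0.02 ± 0.19 SE); the deleted part of the gene was not tested by a sum over the whole gene. All 4 Treg markers (Foxp3, Il2ra, Ctla4, Ikzf2) and all 4 T cell markers had Pol II peaks. None of the CD8 T cell, NK cell or erythroid markers had a peak, 2 of 5 B cell markers had low counts, and of 5 myeloid markers 1, Cd68, had a peak. Normalized counts of Cd68 were 1233 and 1311 in Ctrl against 1097 and 950 in KO (log2 fold change −0.31 ± 0.15, unadjusted p = 0.039, DESeq2). Its peak was shared with Mpdu1, so that these counts cannot be credited to Cd68. The defining myeloid genes Lyz2, Csf1r, Itgam and Adgre1 had none, and the part of such cells in the results was not tested. Because the counts come from bulk nuclei, fewer cells of a type and less Pol II per cell cannot be told apart.

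TNF receptors are single-pass membrane proteins that trimerize upon ligand binding. Most of those listed here carry no death domain and signal through TRAF adaptors to NF-κB and MAP kinases, whereas Tnfrsf1a and Tnfrsf25 carry a death domain. Treg cells are known for high surface levels of GITR, OX40, 4-1BB and TNFR2, which act as costimulatory receptors supporting their proliferation and survival. Many of these genes lie close together on mouse chromosome 4, and Cd27 and Tnfrsf1a lie near each other on chromosome 6.

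The positions below are in mm10 and annotation is from GENCODE vM21. Tnfrsf1b spans chr4:145213463-145246870 on the minus strand, Tnfrsf9 spans chr4:150914562-150946102, Tnfrsf25 spans chr4:152115934-152120119, Tnfrsf14 spans chr4:154921933-154928563 on the minus strand, Tnfrsf4 spans chr4:156013843-156016612 and Tnfrsf18 spans chr4:156026164-156028895. Cd27 spans chr6:125232622-125237010 on the minus strand and Tnfrsf1a spans chr6:125349362-125362484. Traf1 spans chr2:34941750-34961772 on the minus strand, and Cd40lg spans chrX:57212143-57224042.

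Promoter sequences help to place the peaks described here. The RefSeq GRCm38.p6 set held 11 start sites for 9 of the 10 genes. In 9 of these 11 the start site itself lay inside a Pol II peak. The 250 bases before each start were searched on both strands for kappaB-like letters (GGNNTTTCC or GGGNNTTCC, which overlap in part), for the AP-1 letters TGANTCA and for TATAAA. Of all 32851 promoters, 8.36% held a kappaB-like match, 6.75% the AP-1 letters and 12.4% TATAAA. Shown are 5 promoters, those of Tnfrsf4, which had the most Pol II per kb by midpoint, of Tnfrsf18 for the long peak over it that the midpoint rule leaves out, of Tnfrsf1b for the peaks along it, and the 2 with a kappaB-like match, each 5′ to 3′ with any kappaB-like or AP-1 match in capitals. Their positions are Tnfrsf4 (chr4:156013445-156013694, plus strand), Tnfrsf18 (chr4:156026072-156026321, plus), Tnfrsf1b (chr4:145246871-145247120, minus), the inner start of Tnfrsf9 (chr4:150927749-150927998, plus) and the outer start of Tnfrsf25 (chr4:152115684-152115933, plus).
Tnfrsf4: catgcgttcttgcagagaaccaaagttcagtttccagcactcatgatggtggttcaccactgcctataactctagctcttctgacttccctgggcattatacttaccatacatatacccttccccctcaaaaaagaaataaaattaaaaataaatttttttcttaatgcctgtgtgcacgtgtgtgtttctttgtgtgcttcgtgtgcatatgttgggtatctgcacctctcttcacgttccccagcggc
Tnfrsf18: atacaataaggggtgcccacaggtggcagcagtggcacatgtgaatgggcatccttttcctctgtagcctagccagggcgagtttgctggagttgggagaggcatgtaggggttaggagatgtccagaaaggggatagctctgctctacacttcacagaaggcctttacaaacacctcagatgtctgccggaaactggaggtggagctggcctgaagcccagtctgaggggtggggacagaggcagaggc
Tnfrsf1b: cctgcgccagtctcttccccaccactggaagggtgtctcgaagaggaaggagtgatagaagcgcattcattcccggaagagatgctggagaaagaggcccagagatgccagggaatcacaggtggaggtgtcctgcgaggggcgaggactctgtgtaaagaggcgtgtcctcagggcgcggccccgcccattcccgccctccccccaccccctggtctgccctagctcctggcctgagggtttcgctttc
Tnfrsf9: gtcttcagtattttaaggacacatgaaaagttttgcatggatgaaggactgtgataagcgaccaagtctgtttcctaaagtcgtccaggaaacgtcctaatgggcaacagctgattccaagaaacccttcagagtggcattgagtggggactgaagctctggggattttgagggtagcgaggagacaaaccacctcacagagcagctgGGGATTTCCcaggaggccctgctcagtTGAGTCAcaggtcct
Tnfrsf25: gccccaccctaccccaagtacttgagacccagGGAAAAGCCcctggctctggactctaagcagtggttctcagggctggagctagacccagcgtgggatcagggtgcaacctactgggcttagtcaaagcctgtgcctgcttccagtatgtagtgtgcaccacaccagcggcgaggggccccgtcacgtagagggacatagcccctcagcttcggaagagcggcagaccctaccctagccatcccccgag
The inner Tnfrsf9 promoter held GGGATTTCC from position −42 to −34 and TGAGTCA from −15 to −9, with −1 as the base before the start, and the Tnfrsf25 promoter held the reverse-strand match GGAAAAGCC. No promoter of the 11 held TATAAA. A match of letters is a description and not a site of binding.

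Levels of Pol II were compared between genes as normalized count per kb of gene body and 3 kb upstream. Tnfrsf4, the costimulatory receptor OX40, was highest at 535 and 514 per kb in Ctrl against 552 and 581 per kb in KO. It was above 99.9% of all genes with a peak. Its 1 peak of 6930 bp ran beyond the gene on both sides and reached into Sdf4, which lies 0.233 kb from Tnfrsf4. The level thus also holds reads from beyond Tnfrsf4. Traf1 followed at 297 and 250 per kb in Ctrl against 280 and 250 per kb in KO.

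Tnfrsf1b had 178 and 192 per kb in Ctrl against 200 and 203 per kb in KO. Tnfrsf9 had 177 and 161 per kb in Ctrl against 165 and 146 per kb in KO. These genes lay above 98.6% and 97.9% of genes respectively. The 4 libraries of Tnfrsf1b lay above the 4 of Tnfrsf9 by a narrow margin, the lowest of the former being 178 and the highest of the latter 177 per kb.

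Cd27 averaged 96.9 and Tnfrsf25 80.6 per kb, and their libraries overlapped. Tnfrsf14 averaged 38.5 and Tnfrsf18 36.1 per kb, again with overlapping libraries. Tnfrsf1a was lowest at 13.5 and 14.5 per kb in Ctrl against 14.8 and 17.0 per kb in KO, above 56.1% of genes. The remaining neighbours in this order did not overlap between genes in any library.

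**Figure D1:**
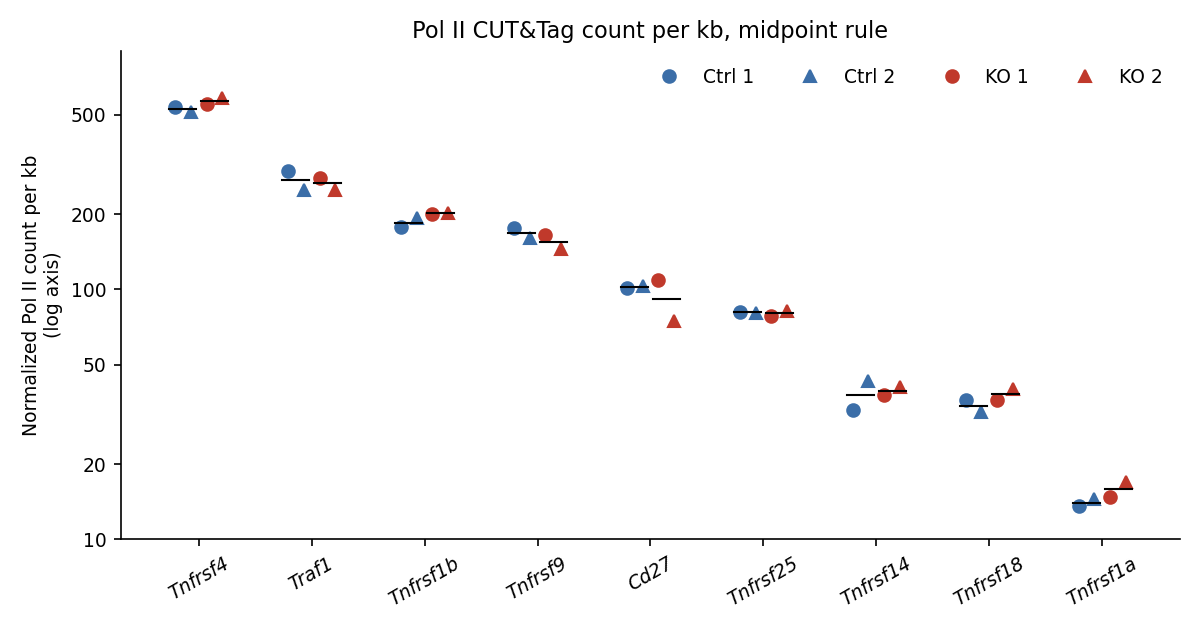
Normalized Pol II count per kb (log axis) for the 9 genes with a peak, ordered by mean, with circles for the libraries numbered 1, triangles for those numbered 2, blue for Ctrl, red for KO and lines for group means. Tnfrsf4 sits highest, between 514 and 581 per kb, Tnfrsf1a lowest, and for most genes Ctrl and KO lie closer together than neighbouring genes.

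The level of Tnfrsf18 depended on how peaks were assigned. GITR, its product, is a receptor that Treg cells carry at high levels, yet the midpoint rule gave it just 2 small upstream peaks. A peak of 8891 bp at chr4:156025175-156034065 covered the whole gene, including its start site, but its midpoint lay past the 3′ end. This peak held 4487 and 4249 normalized counts in Ctrl against 4394 and 4357 in KO. When every peak that overlapped the gene or its 3 kb upstream by at least 1 bp was counted, a way of assigning chosen after the data were seen, Tnfrsf18 had 798 per kb in place of 36.1, above Tnfrsf4 at 545 per kb. The midpoint rule assigned that long peak to the gene Gm16008. Most of the peak lies past the 3′ end of Tnfrsf18, so the higher figure, and its place above Tnfrsf4, also rest on reads from beyond the gene.

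Cd27 gained a long peak in the same way, chr6:125229966-125235178, with 1159 and 967 normalized counts in Ctrl against 1152 and 848 in KO. Its midpoint lay just past the 3′ end of Cd27, and it was assigned to Tapbpl and Vamp1. With this peak Cd27 had 236 per kb in place of 96.9, above Tnfrsf1b at 206 and Tnfrsf9 at 164 per kb. Part of the peak lies past the 3′ end of Cd27, so the higher figure and its place also rest on reads from beyond the gene. For the other 7 genes the mean count per kb changed little under this way of assigning. The largest of these moves was from 269 to 294 per kb in Traf1.

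Cd40lg, the ligand by which activated helper T cells engage CD40 on B cells, had no peak under either way of assigning. The nearest peak, chrX:57228129-57228558, began 4.09 kb past its 3′ end and held 22.3 and 33.1 normalized counts in Ctrl against 30.9 and 57.9 in KO. The nearest on the other side ended 34.4 kb before the gene. A gene with no peak is one without called enrichment in this table, not one shown to lack Pol II.

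Next, KO and Ctrl were compared for gene sums, that is, all peak counts of a gene added together. None of the 9 genes with a peak passed the DESeq2 Wald test at an adjusted p-value of 0.05, and none had an unadjusted p below 0.05. Over all 12927 genes, 13 (0.101%) passed the adjusted test and 373 (2.89%) had an unadjusted p below 0.05. The edgeR quasi-likelihood test called 0 of these 9 genes, with 0 at an unadjusted p below 0.05, and 0 (0.0%) of all genes, with 631 (4.88%) at an unadjusted p below 0.05. Among the 9, 5 were higher and 4 lower in KO, with a median log2 fold change of 0.05, beside −0.00456 for all genes, of which 49.1% were higher in KO. Both KO libraries lay above both Ctrl libraries in 3 genes, Tnfrsf4, Tnfrsf1a and Tnfrsf1b, and below in none. Of all genes, 17.5% had both KO libraries above and 34.3% had them on one side or the other, so that 3 of 9 was near the share over both directions.

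Of the costimulatory receptors, Tnfrsf4 had 3087 and 2967 normalized counts in Ctrl against 3186 and 3352 in KO, all in 1 peak over the whole gene. The KO libraries were the higher, by a log2 fold change of 0.11 ± 0.12 (SE, n = 2 libraries per group, unadjusted p = 0.364, DESeq2). The 95% confidence interval ran from 0.916-fold to 1.27-fold.

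Tnfrsf18 had 208 and 185 normalized counts in Ctrl against 207 and 228 in KO by the midpoint rule, and the groups overlapped. Its log2 fold change was 0.14 ± 0.25. With the long peak included it had 4586 and 4480 in Ctrl against 4571 and 4657 in KO, with a log2 fold change of 0.03 ± 0.11 and an interval from 0.872-fold to 1.19-fold. The larger ratio between replicates was 1.12 by the midpoint rule and 1.02 with the long peak.

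Tnfrsf9 encodes 4-1BB, a receptor induced on activation. It had 6101 and 5548 normalized counts in Ctrl against 5682 and 5026 in KO, with a log2 fold change of −0.12 ± 0.12 (unadjusted p = 0.331, DESeq2). The groups overlapped. All 13 of its peaks were shared, with Park7 upstream of it or with Camta1, within whose annotated span they lay, and CUT&Tag reads carry no strand, so that its counts cannot be credited to Tnfrsf9 alone.

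Cd27 binds CD70 and supports T cell survival. Its sum was 751 and 762 normalized counts in Ctrl against 802 and 550 in KO. KO 1 was the highest library and KO 2 the lowest, a ratio of 1.46 between the KO libraries. The log2 fold change was −0.15 ± 0.19, and without KO 2 it was 0.09. Both of its peaks were shared with Vamp1.

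Tnfrsf14 encodes HVEM, which binds LIGHT and BTLA. It had 316 and 415 normalized counts in Ctrl against 363 and 391 in KO. Both KO libraries lay between the Ctrl libraries. The log2 fold change was 0.05 ± 0.21.

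Of the TNF receptors proper, Tnfrsf1b encodes TNFR2, a receptor through which TNF acts on Treg cells. It had 6466 and 7001 normalized counts in Ctrl against 7275 and 7383 in KO, in 12 peaks that belonged to no other gene. Both KO libraries were above both Ctrl libraries, with a log2 fold change of 0.12 ± 0.11 (unadjusted p = 0.285, adjusted p = 1.00, DESeq2) and an interval from 0.932-fold to 1.27-fold. Tnfrsf1a, the death domain receptor for TNF, had 218 and 234 normalized counts in Ctrl against 239 and 273 in KO, with a log2 fold change of 0.18 ± 0.23. At these counts its interval ran from 0.824-fold to 1.55-fold.

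Tnfrsf25, the death domain receptor for TL1A, had 583 and 581 normalized counts in Ctrl against 563 and 588 in KO. The groups overlapped, with a log2 fold change of −0.02 ± 0.17. The adaptor Traf1 had 6845 and 5754 normalized counts in Ctrl against 6448 and 5767 in KO, with a log2 fold change of −0.04 ± 0.13. In Traf1 the libraries numbered 1 were the higher in both groups, and the larger ratio between replicates, 1.19, exceeded the difference between groups.

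**Figure D2:**
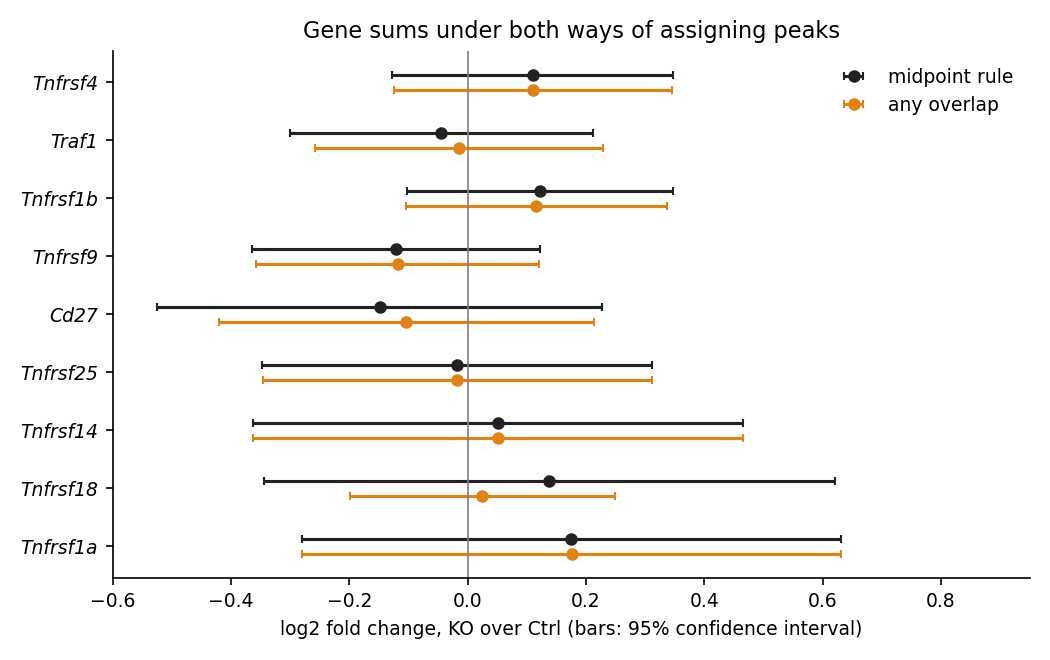
Log2 fold change of KO over Ctrl for the 9 genes with a peak, with 95% confidence intervals from DESeq2, for peaks assigned by midpoint (black) and by any overlap (orange). Every interval crosses 0 under both, and the interval of Tnfrsf18 narrows when the long peak over the gene is counted.

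Single peaks were compared in the same way. Of the 42 peaks, 0 passed the DESeq2 test at an adjusted p of 0.05 and 1 had an unadjusted p below 0.05, beside 0.0% and 1.53% of all 56615 peaks. The edgeR test called 0 of the 42 at an adjusted p below 0.05 and 5 at an unadjusted p below 0.05, beside 27 (0.0477%) and 2057 (3.63%) of all peaks. Both KO libraries lay above both Ctrl libraries in 15 of the 42 peaks (16.2% of all peaks) and below in 5 (16.1% of all peaks). The former share was above its background and the latter was not. Of the 15, 8 lay in Tnfrsf1b, and neighbouring peaks of a gene are not independent of one another.

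The peak with an unadjusted p below 0.05 was an intronic Tnfrsf1b peak at chr4:145221186-145223943, with its midpoint 24.3 kb from the 5′ end. It held 657 and 661 normalized counts in Ctrl against 882 and 976 in KO. The groups did not overlap, with a log2 fold change of 0.49 ± 0.19 (unadjusted p = 0.0104, adjusted p = 1.00, DESeq2).

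The highest Tnfrsf1b peak, chr4:145238717-145248347, covered the start of the gene. It had 3298 and 3373 normalized counts in Ctrl against 3276 and 3044 in KO, with a log2 fold change of −0.08 ± 0.17. Of the 11 peaks further into the gene, 10 had a fold change above 0 and the last, over the terminal exon, had −0.05. Of the 5 peaks with an unadjusted p below 0.05 by edgeR, 4 were in the distal part of Tnfrsf1b and were higher in KO, and the other was in Tnfrsf9 and lower in KO. The peak at chr4:145215768-145216465 had the largest fold change of the gene, 129 and 99.2 normalized counts in Ctrl against 146 and 211 in KO (0.62 ± 0.32).

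In Tnfrsf9 the order was not the same. The peak over its 5′ end, chr4:150912960-150916468, had 1450 and 1372 normalized counts in Ctrl against 1337 and 1236 in KO, with a log2 fold change of −0.13 ± 0.18. Of its 13 peaks 10 were lower and 3 higher in KO. The intronic peak at chr4:150919071-150919533 had 84.1 and 96.4 in Ctrl against 67.7 and 44.3 in KO (−0.65 ± 0.41 by DESeq2, −0.63 with an unadjusted p of 0.0493 and an adjusted p of 1.00 by edgeR). The peak over the inner start site whose promoter is printed above, chr4:150927205-150928551, had 447 and 364 in Ctrl against 425 and 300 in KO, with a log2 fold change of −0.15 ± 0.25.

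Traf1 had 2 very long peaks. The peak of 15637 bp over its start, chr2:34950745-34966381, had 5714 and 4474 normalized counts in Ctrl against 5080 and 4278 in KO, with a log2 fold change of −0.12 ± 0.19. The peak over its 3′ part, chr2:34943386-34950291, had 1296 and 1221 in Ctrl against 1408 and 1397 in KO (0.16 ± 0.18). The groups overlapped in the former and not in the latter.

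**Figure D3:**
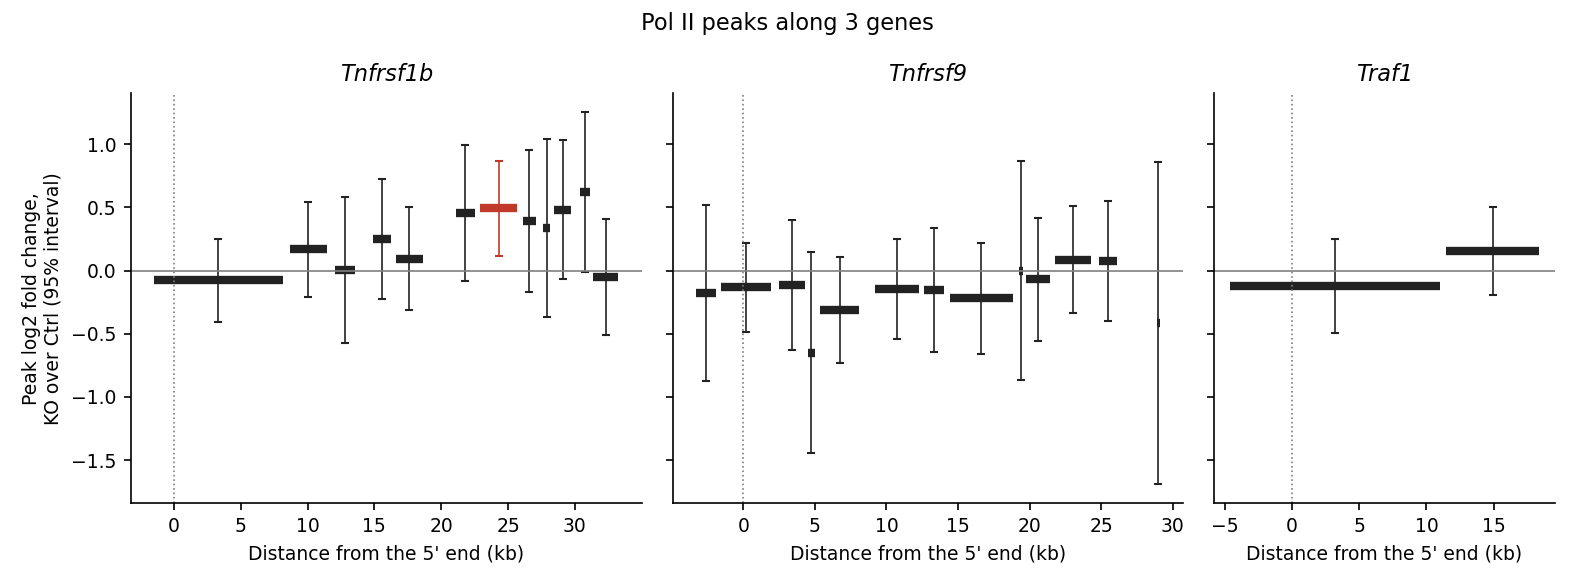
Log2 fold change of KO over Ctrl for each peak of Tnfrsf1b, Tnfrsf9 and Traf1 (vertical axis, 95% confidence interval) against distance from the 5′ end of the gene in kb. Thick bars give the extent of each peak and red marks the 1 peak with an unadjusted p below 0.05, at 24.3 kb in Tnfrsf1b; the peaks downstream in Tnfrsf1b lie mostly above 0 and those of Tnfrsf9 mostly below.

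In the other genes the highest peak by midpoint had no unadjusted p below 0.05 (DESeq2). The 95% intervals were wide, up to 0.750-fold to 1.88-fold in Tnfrsf18. This highest peak had a log2 fold change of 0.09 ± 0.17 in Tnfrsf4 and −0.24 ± 0.25 in Cd27, where it covered the start. In Tnfrsf25 it covered the start and had −0.09 ± 0.25, in Tnfrsf14 it was intronic with 0.01 ± 0.27, in Tnfrsf1a it was intronic with 0.10 ± 0.33, and in Tnfrsf18 it was upstream with 0.25 ± 0.34, beside −0.01 ± 0.35 in its other peak of nearly the same level. Tnfrsf1a had the fold change furthest from 0 of the 42 peaks, 1.34 ± 0.72, in an intronic peak of 14.4 and 8.27 normalized counts in Ctrl against 22.6 and 37.5 in KO (unadjusted p = 0.0646, DESeq2). Peaks as low as this carry the largest counting error.

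How a gene's counts divided between its start and the rest was then measured as the percent of its peak counts that lay in the peak over its 5′ end, in the 5 genes with such a peak and at least 1 other. In Tnfrsf1b the share was 49.8% and 48.7% in Ctrl against 44.7% and 41.9% in KO. It was lower in both KO libraries, with a difference of −5.92 percentage points (49.2% ± 0.80 SD in Ctrl, 43.3% ± 2.02 in KO, exact permutation p = 0.33). With 2 libraries against 2 a two-sided exact permutation test cannot give a p below 0.33.

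In Traf1 the share was 81.5% and 78.6% in Ctrl against 78.3% and 75.4% in KO, and in Cd27 it was 77.8% and 76.6% in Ctrl against 75.0% and 69.8% in KO (exact permutation p = 0.33 for each). Both KO libraries were below both Ctrl libraries in these genes. The only other peak of Cd27 lay upstream of the gene and was shared with Vamp1, so its share does not set the start against the gene body. The share of Tnfrsf9 was 23.2% and 25.0% in Ctrl against 23.4% and 25.0% in KO, and that of Tnfrsf25 was 51.3% and 46.8% in Ctrl against 53.0% and 40.6% in KO, with overlapping groups. For Tnfrsf9 the peak taken as the start lay over its outermost annotated 5′ end and was shared with Park7. The RefSeq starts of Tnfrsf9 lay further into the gene.

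The same was measured over the 3471 genes with a peak over the 5′ end, another peak, and a mean of at least 100 normalized counts in each. The start share was lower in both KO libraries than in both Ctrl libraries in 19.3% of these genes, and higher in 9.54%. It was lower in 3 of the 5 genes described here. The other peaks of the gene had the higher fold change in 61.9% of all these genes, with a median difference of 0.06 on the log2 scale between them and the start. The difference was 0.34 in Tnfrsf1b, 0.33 in Cd27 and 0.28 in Traf1, above 88.9%, 87.7% and 82.7% of these genes. In Cd27 it compares the start with an upstream peak and not with the gene body. It was −0.01 in Tnfrsf9, where the start peak was the one shared with Park7. The start share over all these genes thus also moved in the direction seen in Tnfrsf1b.

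**Figure D4:**
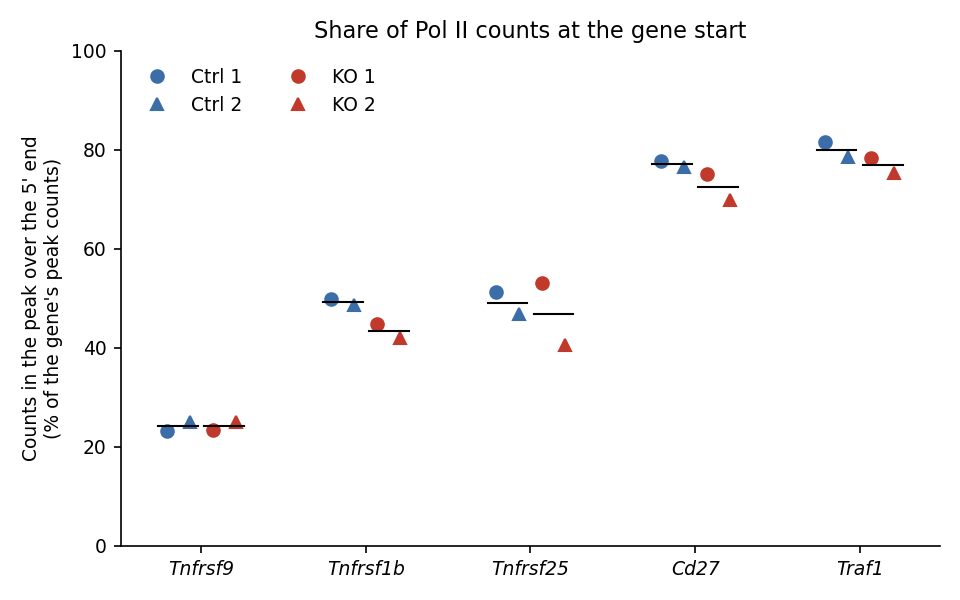
Percent of a gene's peak counts that lie in the peak over its 5′ end (vertical axis, 0 to 100%) for the 5 genes with such a peak and another, with symbols for the 4 libraries and lines for group means. In Tnfrsf1b, Cd27 and Traf1 both KO libraries lie below both Ctrl libraries, while those of Tnfrsf9 and Tnfrsf25 overlap.

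When the share was taken over all peaks with a midpoint within 3 kb of any annotated start site, 4 genes could be measured. It was 80.5% and 80.6% in Ctrl against 79.1% and 76.9% in KO for Tnfrsf9, 93.3% and 92.6% in Ctrl against 89.8% and 85.4% in KO for Tnfrsf14, and the same as above for Traf1 (exact permutation p = 0.33 for each). For Tnfrsf1a it was 50.2% and 52.4% in Ctrl against 55.1% and 51.3% in KO, with overlapping groups. The Tnfrsf1b peak over the start had its midpoint 3.34 kb from the 5′ end and was no promoter peak by this rule.

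The neighbours of these genes were read from the same fit. The nearest protein-coding genes with a peak were, for Tnfrsf4, Sdf4 on one side (log2 fold change 0.05 ± 0.13) and Tnfrsf18 on the other. For Tnfrsf1b they were Vps13d (−0.05 ± 0.18) and Tnfrsf8 (0.08 ± 0.14). For Traf1 they were Phf19 (−0.17 ± 0.14) and Cntrl (0.23 ± 0.14). None of these nearest genes, found by gene midpoint for each of the 10, had an unadjusted p below 0.05 (DESeq2). Camta1, which shared peaks with Tnfrsf9, was not among them. Park7 shared 2 peaks with Tnfrsf9 and had −0.04 ± 0.13.

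Other genes of the family were described by lists, to be read beside all 12927 genes. Of these, 49.1% were higher in KO and 2.89% had an unadjusted p below 0.05 in either direction. Of 20 other TNF receptor genes 10 had a peak, and 0 of these had an unadjusted p below 0.05; 3 were higher and 7 lower in KO, with a median log2 fold change of −0.06. The highest by mean count were Tnfrsf10b, Tnfrsf8 and Relt. Tnfrsf10b, the mouse TRAIL receptor, had 1775 and 1803 normalized counts in Ctrl against 1710 and 1591 in KO (−0.11 ± 0.13). Tnfrsf8, which encodes CD30, had 1315 and 1516 in Ctrl against 1433 and 1566 in KO (0.08 ± 0.14), and Relt had 861 and 991 in Ctrl against 863 and 1028 in KO (0.03 ± 0.16).

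Of 16 ligand genes of the superfamily 11 had a peak, with 4 higher and 7 lower in KO and a median log2 fold change of −0.09. An unadjusted p below 0.05 was found for 1 of the 11, in the lower direction, beside 2.89% of all genes in either direction. This was Tnfsf8, the gene of the CD30 ligand, with 1561 and 1548 normalized counts in Ctrl against 1251 and 1052 in KO. Its log2 fold change was −0.43 ± 0.15 (unadjusted p = 0.00343, adjusted p = 0.741, DESeq2), and both KO libraries were below both Ctrl libraries.

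All 13 adaptor and signalling genes had a peak, with 6 higher and 7 lower in KO and a median of −0.01. Again 1 of the 13 had an unadjusted p below 0.05, beside 2.89% of all genes. It was Tnfaip3, which encodes A20, an inhibitor of NF-κB signalling downstream of TNF receptors. Tnfaip3 had 18145 and 15826 normalized counts in Ctrl against 13309 and 11720 in KO, with a log2 fold change of −0.44 ± 0.12 (unadjusted p = 0.000402, adjusted p = 0.236, DESeq2). The groups did not overlap, and the adjusted test was not passed. The ubiquitin ligase genes Birc2 (−0.15 ± 0.14) and Birc3 (0.03 ± 0.13) and the Traf2 gene (0.10 ± 0.14) had intervals that held 0.

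**Figure D5:**
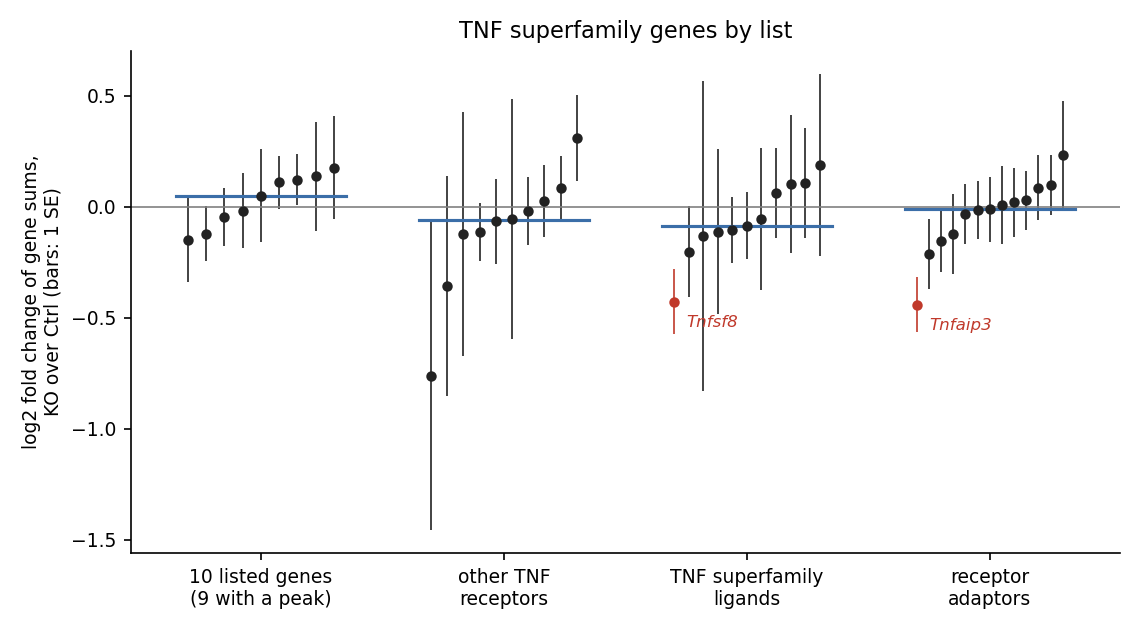
Log2 fold change of gene sums, KO over Ctrl, with bars of 1 standard error, for each gene with a peak in the list of 10 genes and in the lists of other receptors, ligands and adaptors; blue lines are medians and red marks an unadjusted p below 0.05. Tnfsf8 and Tnfaip3 are the 2 red points, at −0.43 and −0.44.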

How the data were processed

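The authors trimmed paired-end reads, mapped them to mm10 with Bowtie2, kept uniquely mapped reads without duplicates, called peaks with MACS2 against IgG, merged them and counted reads per merged peak with bedtools; the versions are not given in the sources used here. The deposited table holds raw read counts for 56615 peaks in 4 libraries. Peaks were assigned with GENCODE vM21 by midpoint to genes, protein-coding genes first, or by overlap of at least 1 bp as an added alternative. Gene sums and peaks were tested over the whole table with DESeq2 1.42.0 (Wald test, genotype alone, Benjamini-Hochberg adjustment, size factors, tested on simulated data), with edgeR 4.0.16 as the alternative, in R 4.3.3. The simulation used gene sums and larger changes than those of the listed genes. Whether changes as small as theirs would be found was not tested. Normalized counts are counts divided by size factors, and intervals are 95%. No background was subtracted. Peaks and gene sums were scaled separately. Depth limits low peaks most. The 10 genes, the gene lists and the rule for genes named (all 10, their highest peak and peaks with unadjusted p below 0.05, listed genes below 0.05 or the 3 highest by count) were chosen with earlier results of these data known. Birc2, Birc3, Traf2, the neighbours, the start share, Mpdu1, the distal Tnfrsf1b peaks, the low Tnfrsf9 peak and the Tnfrsf1a peak furthest from 0 were named after their values were seen.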

Additional observations from a re-analysis of the deposited data

How the results depend on the processing

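The count of genes called among the 9 was 0 under every alternative run, but in the replicate block 5 of the 9 had no adjusted p and could not be called, and the median log2 fold change stayed within 0.109, the median replicate SD, of its value. The shallowest library held 4489646 counts and each group had 2 libraries. What set the width of the intervals was not tested. The numbers shared by the libraries carry no stated pairing; libraries with the same number deviated together (r = 0.369 across genes, which are not independent replicates). With the replicate block 2 of the 9 genes had an unadjusted p below 0.05, Tnfrsf9 (0.0494) and Tnfrsf1b (0.0336), neither with an adjusted p below 0.05; of all 12927 genes 590 had an unadjusted p below 0.05 and 116 passed the adjusted test, in place of 373 and 13. In that fit Tnfsf8 (adjusted p = 0.00569) and Tnfaip3 (adjusted p = 8.97e-18) passed the adjusted test, 83.4% of genes had no adjusted p, and 2 adaptor genes in place of 1 (Tnfaip3 and Tank) had an unadjusted p below 0.05.

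With promoter peaks alone 3 genes in place of 5 were higher in KO, of those still measured, since Tnfrsf1b then had no peak; Tnfrsf14 turned to −0.029. Tnfrsf18 had no value with a 1 kb upstream window or none, and Tnfrsf9 and Cd27 had none with unshared peaks. Peaks at an unadjusted p below 0.05 numbered 5 by edgeR and 2 with total-count scaling in place of 1, and from 0 to 2 when 1 library was left out; they were 0 without Ctrl 1, without Ctrl 2 and without KO 2. Adjusted calls over all genes were 0 by edgeR, 7 with unshared peaks, 8 in gene bodies and from 0 to 3 without 1 library; over all peaks edgeR called 27 and the block 25 in place of 0.

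When 1 library was left out, the lone library of its group was assumed to vary like the others. The sign of some log2 fold changes then turned. Those of Cd27 were among them (−0.15 for the gene sum and −0.24 for the highest peak with no library left out). Gene sums then ranged from −0.046 to 0.016 in Tnfrsf25, −0.14 to 0.25 in Tnfrsf14, −0.46 to 0.086 in Cd27 and −0.16 to 0.089 in Traf1. The highest peak ranged from −0.028 to 0.24 in Tnfrsf1a, −0.29 to 0.069 in Tnfrsf25, −0.18 to 0.22 in Tnfrsf14, −0.64 to 0.050 in Cd27 and −0.29 to 0.073 in Traf1. The causes were not tested.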
